A study of Homo sapiens with 2 samples.

Results

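The S100 genes studied here were 10 members of a family of small calcium-binding proteins, S100A2, S100A4, S100A6, S100A7, S100A8, S100A9, S100A10, S100A11, S100A14 and S100P. They were chosen by gene symbol, as the transcript clusters of the array that the platform annotation assigns to these names. Each member had 1 cluster, so 10 clusters stood for 10 genes among 22465 named genes. Of the members, 9 lie on chromosome 1 and S100P lies on chromosome 4.

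Expression was measured on 2 Affymetrix Human Transcriptome Array 2.0 microarrays, 1 for a cetuximab-resistant FaDu line and 1 for the parental FaDu line. FaDu cells are a widely used cell line from a human squamous cell carcinoma of the pharynx. Cetuximab is a therapeutic antibody against the receptor EGFR. The labels do not say how resistance was obtained, whether the resistant line is 1 clone, or whether the drug was present at harvest. With 1 array per line there was no spread between replicates and no test, so each difference below, resistant minus parental, cannot be told apart from a difference between cultures or arrays.

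S100 proteins are built from a pair of EF-hand calcium-binding motifs and mostly work as dimers. When calcium is bound, many of them expose a surface that holds a target protein, such as an annexin or a myosin heavy chain. Some are released from cells and act on receptors such as RAGE and Toll-like receptor 4. In stratified epithelium the family is known for its cluster in the epidermal differentiation complex on chromosome 1, and several members are induced there by inflammation, wounding or keratinocyte differentiation.

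Values are the deposited log2 expression values, and a difference of 1 log2 unit is a 2-fold difference. Genes were counted if their brighter array exceeded 5.98, the brightness level, which is the median of the brighter value among the named genes, and 11224 genes were counted. The background level, taken from 364 olfactory receptor genes at their 95th percentile, was 5.03 on the resistant array and 5.09 on the parental array. Their 99th percentile was 7.10 on the resistant and 6.59 on the parental array. It serves as the floor for every fold given as "at least", and no fold is given where both values lie under it. The counts at 2-fold use the brightness level alone, so they can include such genes. Values of different genes come from different probes, so levels are not compared between genes. A sum over a list is read between the arrays only, and a bright gene can dominate it.

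The S100 genes did not move as a block. Of the 10 members, 5 were above the brightness level, and of these S100A9 was higher by 2-fold or more on the resistant array and S100A2 lower, 1 gene in each direction. Over all counted genes 16% were higher by that size and 14.1% lower, so these counts of members were near what the whole array showed. The median difference was 0.03 log2 units over all 10 members and -0.48 over the 5 above the brightness level, against medians of -0.01 over all named genes and 0.01 over all counted genes. Of the 10 differences, 5 were positive and 5 negative, a split that includes the 5 members under the brightness level. Above that level, S100A9 and S100A11 had positive differences and S100A2, S100A10 and S100A14 negative ones. In RNA of a whole culture, fewer cells that express a gene and less of its RNA per cell cannot be told apart.

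**Figure D1:**
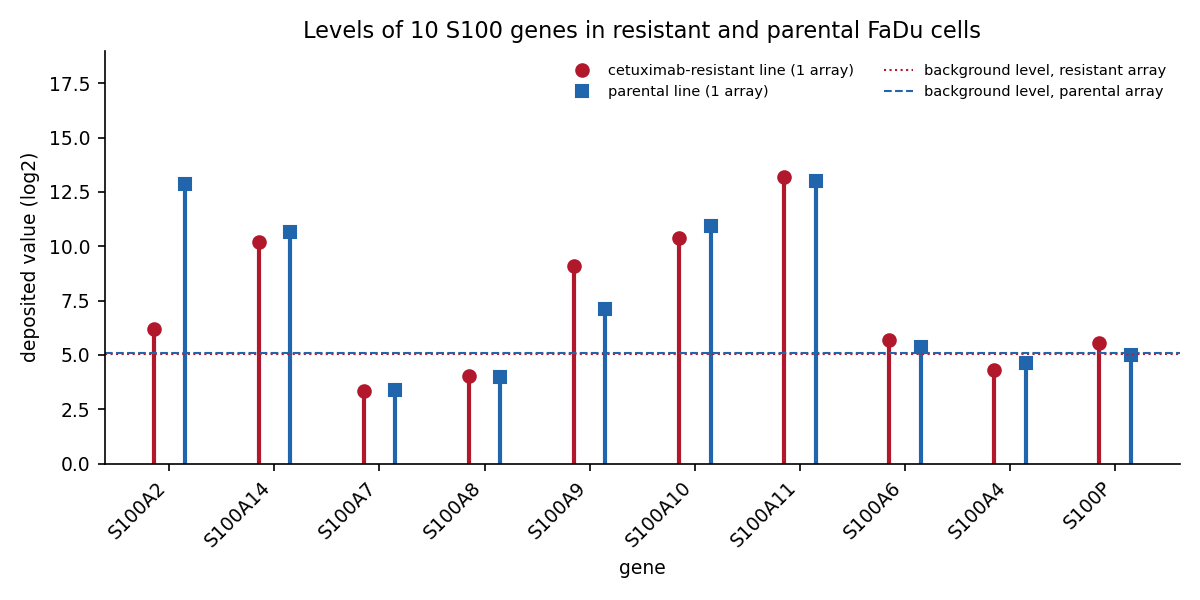
Deposited log2 value (vertical axis) of each of the 10 S100 genes on the resistant array (red circles) and the parental array (blue squares), with 1 array per line and the background level of each array as a horizontal line. S100A2 stands at 6.18 on the resistant array and 12.88 on the parental array, S100A9 at 9.08 (resistant) and 7.10 (parental), and S100A7, S100A8 and S100A4 lie below the background level on both arrays.

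Proximal promoters are shown here as RefSeq sequence of GRCh38.p14 running from 250 bases before to 50 bases after the annotated start, 5′ to 3′ on the strand of the gene. S100A2 is shown because it had the largest difference of the members (chr1:153565795-153566094, minus strand). S100A9 (chr1:153357604-153357903, plus strand) and S100A8 (chr1:153391024-153391323, minus strand) are shown because their proteins form 1 complex, of which S100A9 was counted as higher and S100A8 was below background on both arrays. Capitals mark an AP-1 motif (TGANTCA) in S100A2 and a TATA box motif (TATAAA) in S100A9 and S100A8.

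S100A2: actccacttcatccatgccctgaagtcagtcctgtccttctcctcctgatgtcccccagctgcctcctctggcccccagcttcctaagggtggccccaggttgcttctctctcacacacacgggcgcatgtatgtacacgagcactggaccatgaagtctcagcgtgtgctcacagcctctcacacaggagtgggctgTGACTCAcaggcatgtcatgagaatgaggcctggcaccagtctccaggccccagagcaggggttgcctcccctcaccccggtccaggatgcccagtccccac
S100A9: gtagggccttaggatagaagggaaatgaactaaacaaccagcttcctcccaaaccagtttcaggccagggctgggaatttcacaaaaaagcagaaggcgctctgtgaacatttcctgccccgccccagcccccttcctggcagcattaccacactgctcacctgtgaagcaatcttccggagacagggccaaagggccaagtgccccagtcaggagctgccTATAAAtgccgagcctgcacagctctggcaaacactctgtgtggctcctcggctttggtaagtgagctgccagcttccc
S100A8: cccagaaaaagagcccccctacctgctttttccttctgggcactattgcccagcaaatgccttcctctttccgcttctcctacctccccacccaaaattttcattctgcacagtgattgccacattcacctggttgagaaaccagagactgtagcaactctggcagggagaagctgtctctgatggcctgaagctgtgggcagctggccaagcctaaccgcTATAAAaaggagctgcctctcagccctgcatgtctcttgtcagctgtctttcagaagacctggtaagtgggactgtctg

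The promoter table held 13 windows for the 10 members, with a second window for S100A2 and 2 further windows for S100A8. Motifs were searched on both strands, and a match is a description of the letters only. TGANTCA occurred in 1 of the 13 windows, the S100A2 window shown and not the other S100A2 window, where it began at position -52 from the start, and in 7.71% of all 35116 windows of that length. TATAAA occurred in 6 of the 13 windows, against 11.5% of all windows, and this motif was added to the search with the values of the members known. Of the 6 windows, 2 are overlapping windows of S100A8 that hold the same match. It began at position -29 in both the S100A9 and the S100A8 window shown, and it also occurred in windows of S100A4, S100A7 and S100P. An antioxidant response element core (TGACNNNGC) occurred in 1 window, that of S100A14, against 13.3% of all windows. A STAT motif (TTCNNNGAA, 7.66% of all windows) and the interferon-stimulated response element (3.57%) occurred in 0 of the 13 windows.

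Members known from squamous epithelium were divided. S100A2, a mostly nuclear S100 protein of basal epithelial cells, stood at 6.18 on the resistant array and at 12.88 on the parental array. The resistant value was 1.15 log2 units above background and the parental value 7.79 above it, so S100A2 was 104-fold lower in the resistant line (a difference of -6.70 log2 units). Among the 11224 counted genes, 11 had a difference this low or lower, S100A2 included. The resistant value lay under the floor of 7.10, and against that floor S100A2 was at least 55.0-fold lower.

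S100A14, another S100 gene of epithelial cells, was bright on both arrays, at 10.18 on the resistant and 10.66 on the parental array. Its difference of -0.48 log2 units stayed within 2-fold. S100A7, which encodes psoriasin, an antimicrobial protein of inflamed skin, was not detected above background in either line, at 3.35 on the resistant array and 3.37 on the parental array.

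S100A8 and S100A9 encode the subunits of calprotectin, a heterodimer that binds zinc and manganese and is abundant in neutrophils and in inflamed squamous epithelium. The 2 genes differed in their detection. S100A9 stood at 9.08 on the resistant array and 7.10 on the parental array, 3.94-fold higher in the resistant line (1.98 log2 units). Of the counted genes 5.61% had a difference at least this high. S100A8 stood at 4.05 on the resistant array and 3.97 on the parental array, below background on both, so no fold is given for it. S100A12, which lies between them on the chromosome and encodes a further S100 protein of granulocytes, was also below background, at 3.29 on the resistant and 3.82 on the parental array.

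Because S100A9 is a gene of myeloid cells, markers of that lineage were read beside it. Of 12 myeloid markers, 2 were above background on the resistant array and 1 on the parental array, and 0 were above the brightness level. ITGAM stood at 5.56 on the resistant and 4.72 on the parental array, and TYROBP at 5.21 (resistant) and 5.14 (parental). PTPRC, the pan-leukocyte antigen gene, was below background on both, at 3.98 on the resistant and 3.92 on the parental array, and so were the neutrophil gene CSF3R at 4.26 (resistant) and 4.32 (parental) and the granule enzyme gene MPO at 4.71 (resistant) and 4.65 (parental). Summed on the linear scale the list came to 281 on the resistant and 261 on the parental array.

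S100A10 and S100A11, which bind annexins, were bright and differed little. S100A10, which forms a tetramer with annexin A2 at the cell membrane and has lost the ability to bind calcium, stood at 10.36 on the resistant array and 10.93 on the parental array, a difference of -0.57 log2 units. S100A11, a partner of annexin A1, stood at 13.18 on the resistant array and 13.01 on the parental array, a difference of 0.17 log2 units. Of the counted genes 25.5% had a difference as low as that of S100A10 or lower, and 42.6% had one as high as that of S100A11 or higher. Both differences were thus of a size common on these arrays.

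The remaining members were dim. S100A6 (calcyclin), which binds the calcyclin-binding protein CACYBP, lay a little above background on both arrays, at 5.69 on the resistant and 5.37 on the parental array. S100A4, known for its link to cell motility and for binding the non-muscle myosin heavy chain MYH9, was below background on both, at 4.33 on the resistant and 4.61 on the parental array. S100P, which binds ezrin and IQGAP1, stood at 5.57 on the resistant array, just above background, and at 5.02 on the parental array, just below it. Both S100P values lay under the floor. The 5 members under the brightness level had differences between -0.28 and 0.55 log2 units. For scale, the SD of the differences among olfactory receptor genes was 0.42 log2 units. That SD is a spread of dim clusters within 1 pair of arrays, not a replicate error.

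Few of the other S100 genes were bright enough to be counted. Of 11 other family genes, 2 were above the brightness level and 0 of them passed 2-fold in either direction. The median difference was -0.17 over all 11. With 16% of all counted genes higher by that size and 14.1% lower, 0 of 2 says little about these genes. S100A13, which takes part in the release of fibroblast growth factor 1, stood at 6.51 on the resistant and 7.24 on the parental array. S100A16 stood at 8.47 on the resistant and 8.34 on the parental array. S100A3, a gene of the hair cuticle, was above background on the parental array alone, at 4.51 on the resistant and 5.48 on the parental array, a difference of -0.97 log2 units. S100A1, S100A5, S100A7A, S100A7L2, S100A12, S100B, S100G and S100Z were below background on both arrays. In all, 21 S100 genes had a cluster, 9 of them lay above background on the resistant array and 9 on the parental array, and 11 lay above it on neither. S100A7 and S100A7A are near-identical genes whose probes may share signal.

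**Figure D2:**
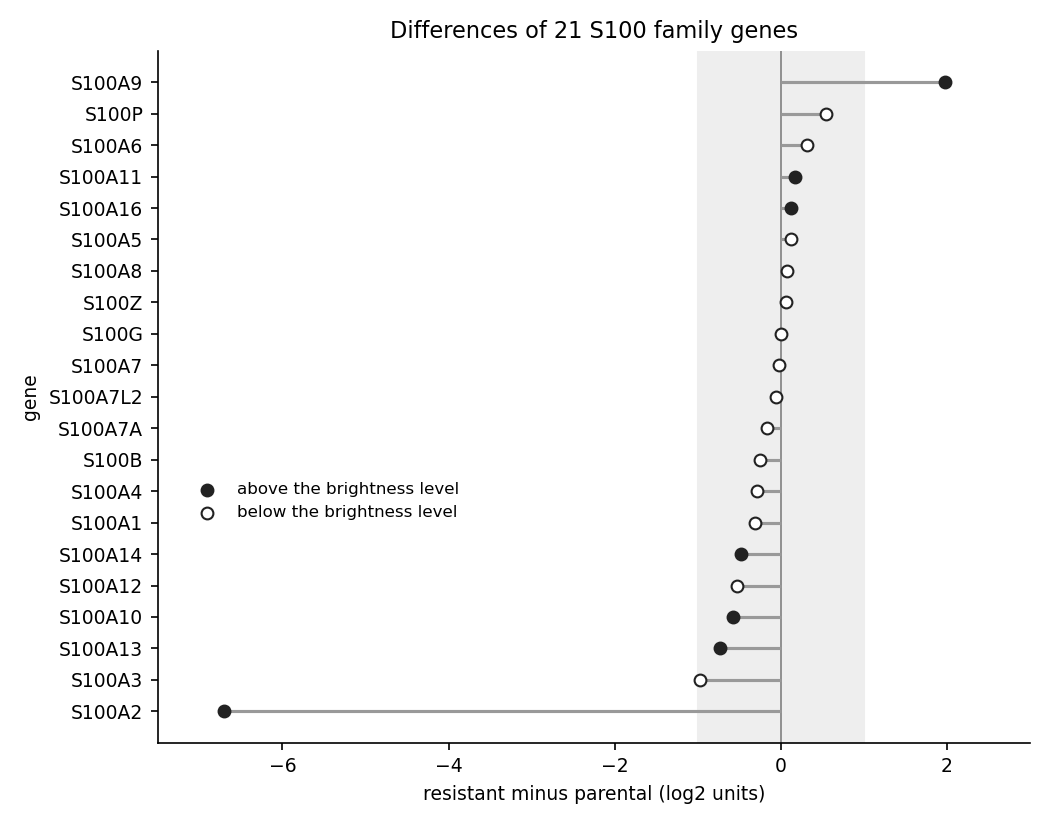
Difference (resistant minus parental, log2 units, horizontal axis) of each of the 21 S100 genes, 1 per line; filled points lie above the brightness level, open points below it, and grey shading marks differences under 2-fold. S100A9 at 1.98 and S100A2 at -6.70 lie outside the shading.

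S100-fused genes, which carry an S100 domain at the start of a long repeat protein of the cornified layer, were dim. Of 7 such genes (FLG, FLG2, HRNR, RPTN, CRNN, TCHH and TCHHL1), 1 was above background on either array and 0 were above the brightness level. TCHH, the gene of trichohyalin, stood at 5.29 on the resistant and 5.48 on the parental array. FLG, the gene of filaggrin, stood at 3.88 on the resistant and 4.36 on the parental array.

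The position of S100A2 and S100A9 in the gene cluster was examined next. In the order of the RefSeq annotation, 64 named genes run from S100A10 to S100A1, and 10 of them were above the brightness level. Among these 10, S100A2 was the 1 gene lower by 2-fold or more and S100A9 the 1 gene higher by 2-fold or more. Of the neighbours of S100A2, S100A16 had a difference of 0.13 log2 units. S100A3 had one of -0.97, with a resistant value below background and both values under the floor, so its size is not well measured. The neighbours of S100A9 were below background on both arrays, with PGLYRP4, a peptidoglycan recognition protein gene, at 4.04 on the resistant and 4.04 on the parental array. The 15 genes from S100A9 to S100A1 are all S100 genes, 5 of them counted, with a median difference of -0.48 log2 units over those 5.

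Between the S100 genes lie the genes of cornified envelope proteins. Of 35 listed genes of the epidermal differentiation complex and its edge that had a cluster, 9 were above background on the resistant array and 7 on the parental array, 3 were above the brightness level, and 0 of these passed 2-fold. The list does not hold every gene of the complex, and its counted genes include THEM4, which lies before S100A10. LCE3B, not on the list, was above the brightness level, at 7.02 on the resistant and 7.25 on the parental array. SPRR3, a small proline-rich envelope protein gene, stood at 5.94 on the resistant array, just under the brightness level, and at 4.41 on the parental array, both under the floor. LCE3D, a late cornified envelope gene, stood at 6.28 on the resistant and 6.94 on the parental array. Of 15 genes flanking the S100 cluster on the other side, 13 were above the brightness level and 0 passed 2-fold. Their median difference was -0.34 log2 units over all 15 and -0.39 over the 13. Over all of chromosome 1, 12.4% of 1008 counted genes were higher by 2-fold or more and 11.9% lower, with a median difference of -0.05. The 10 counted genes from S100A10 to S100A1 had a lower median, -0.355, as did the 13 flanking genes.

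**Figure D3:**
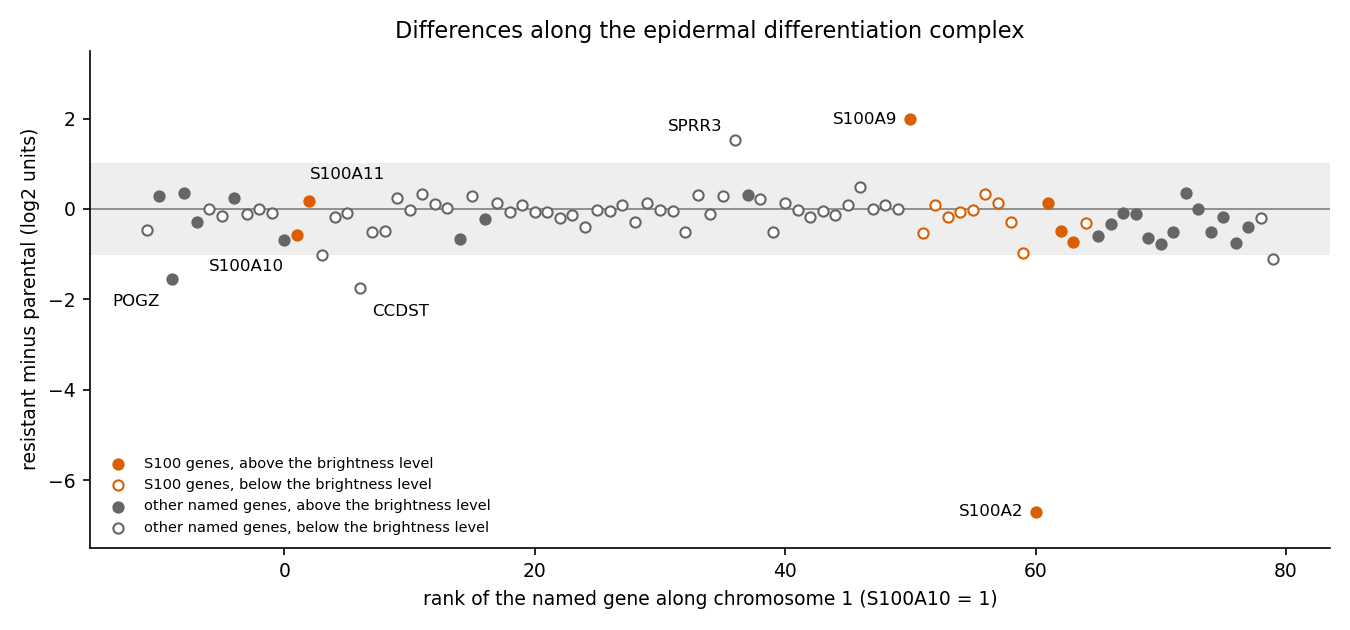
Difference (resistant minus parental, log2 units, vertical axis) of the named genes from S100A10 to S100A1 on chromosome 1 and of 12 genes before and 15 genes after them, by rank along the chromosome; orange points are S100 genes, grey points other genes, filled points lie above the brightness level, and shading marks differences under 2-fold. S100A2 at -6.70 and S100A9 at 1.98 stand beside S100 genes with differences between -0.97 and 0.32.

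Receptors that S100 proteins can act on were counted in both directions, but only through genes with both values under the floor. Of 10 receptor genes, 6 were above the brightness level, of which 1 was higher and 1 lower by 2-fold or more, with a median difference of -0.12 log2 units over all 10. By that size, 16% of all counted genes were higher and 14.1% lower. TLR4, the Toll-like receptor for calprotectin, stood at 6.41 on the resistant array and at 4.05 on the parental array. LY96, the gene of MD-2, its co-receptor, was below background on both, at 3.66 on the resistant and 3.78 on the parental array. AGER, the gene of RAGE, stood at 5.41 on the resistant and 6.44 on the parental array. These are the receptor genes counted as higher and lower, and both values of each gene lay under the floor, so the differences are imprecise. BSG, the gene of basigin, a receptor for S100A9, stood at 13.63 on the resistant and 14.03 on the parental array. MCAM stood at 6.14 on the resistant and 5.47 on the parental array, ALCAM at 11.49 (resistant) and 11.77 (parental), and NPTN at 11.58 (resistant) and 11.84 (parental).

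Intracellular partners of S100 proteins included genes with large differences. Of 19 measured partner genes, 16 were above the brightness level, of which 6 were higher and 2 lower by 2-fold or more, with a median difference of 0.14 log2 units over all 19. The shares over all counted genes were 16% higher and 14.1% lower. ANXA1, the partner of S100A11, stood at 10.52 on the resistant and 14.09 on the parental array, 11.9-fold lower in the resistant line. ANXA2, the partner of S100A10, stood at 15.38 on the resistant and 15.29 on the parental array. Other annexin genes were higher in the resistant line, ANXA5 by 1.48, ANXA6 by 1.43 and ANXA11 by 1.11 log2 units. The parental ANXA6 value of 5.70 lay under the floor, and against that floor ANXA6 was at least 1.45-fold higher.

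MYH9, the myosin bound by S100A4, stood at 14.18 on the resistant and 12.38 on the parental array, 3.48-fold higher in the resistant line. EZR, the gene of ezrin and a partner of S100P, stood at 15.54 on the resistant and 13.96 on the parental array, 2.99-fold higher. The S100 genes that bind these proteins, S100A4 and S100P, were at or near background in both lines. PPP5C, a phosphatase gene, was 1.28 log2 units higher. COPS5, a COP9 signalosome gene whose protein binds S100A7, stood at 5.99 on the resistant and 7.53 on the parental array, a difference of -1.54. The resistant COPS5 value lay under the floor, and against that floor COPS5 was at least 1.35-fold lower. IQGAP1 had a difference of -0.92 and AHNAK, a partner of the S100A10 and annexin A2 complex, of -0.71.

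Transcription factors tied to S100 genes went both ways. Of 21 measured genes 16 were above the brightness level, of which 2 were higher and 6 lower by 2-fold or more, with a median difference of -0.25 log2 units over all 21. Among all counted genes, 16% were higher and 14.1% lower by that size. FOS, an AP-1 subunit, stood at 6.23 on the resistant and 14.24 on the parental array, and JUNB at 8.89 (resistant) and 11.53 (parental). The AP-1 genes JUN at 8.21 (resistant) and 8.27 (parental) and FOSL1 at 8.82 (resistant) and 8.89 (parental) were within 2-fold. TFAP2A, an AP-2 factor of epidermis, stood at 7.49 on the resistant and 9.88 on the parental array, and KLF5 at 11.02 (resistant) and 12.60 (parental). RELA had a difference of -1.34 and BRCA1 of -1.37. GATA3 stood at 9.55 on the resistant and 6.75 on the parental array, and GRHL3, a factor of epidermal barrier formation, at 6.11 (resistant) and 5.04 (parental). Both GRHL3 values lay under the floor, so the GRHL3 difference is imprecise. CEBPB, a C/EBP factor known to act on S100A8 and S100A9 in myeloid cells, stood at 7.68 on the resistant and 7.15 on the parental array.

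The interleukin 1 genes IL1A and IL1B, whose products can induce S100A8 and S100A9 in keratinocytes, were lower in the resistant line. Their part in the S100A9 difference was not tested. Of 14 cytokine and receptor genes on the list, 8 were above the brightness level, of which 1 was higher and 3 lower by 2-fold or more, with a median difference of -0.42 log2 units over all 14. All counted genes gave shares of 16% higher and 14.1% lower. IL1B stood at 5.13 on the resistant and 10.39 on the parental array. IL1A stood at 4.91 on the resistant array, below background, and at 9.48 on the parental array, at least 5.21-fold lower in the resistant line. IL1R1, the interleukin 1 receptor gene, stood at 6.55 on the resistant and 4.91 on the parental array. It is the gene counted as higher, and both its values lay under the floor, so its difference is imprecise. IL10RB, a receptor chain used by interleukin 22, stood at 7.85 on the resistant and 10.76 on the parental array, while OSMR, the oncostatin M receptor gene, stood at 12.99 (resistant) and 12.22 (parental).

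Several markers of squamous epithelium were lower in the resistant line, as S100A2 was. Of 10 measured markers, all 10 were above the brightness level, of which 1 was higher and 6 lower by 2-fold or more, with a median difference of -1.03 log2 units. Across all counted genes 16% were higher and 14.1% lower by that size. KRT14, a keratin of basal cells like those in which S100A2 is found, stood at 5.17 on the resistant and 11.39 on the parental array, and KRT5, its partner keratin, at 13.75 (resistant) and 17.25 (parental). DSG3, a desmosomal cadherin gene, stood at 4.19 on the resistant array, below background, and at 12.18 on the parental array. EPCAM, a general epithelial marker, stood at 13.98 on the resistant and 12.61 on the parental array, and CDH1 at 12.62 (resistant) and 13.33 (parental). Summed on the linear scale the markers came to 76520 on the resistant and 288157 on the parental array. KRT5 alone made up 54.1% of the sum on the parental array, and without it the sums were 62743 and 132286, in the resistant and the parental line. KRT16, PERP and CDH1 were within 2-fold. Of 7 measured fibroblast markers 1 was above background on either array and 0 were above the brightness level, and their sums were 146 on the resistant and 142 on the parental array. The part of these markers in the S100A2 difference was not tested.

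**Figure D4:**
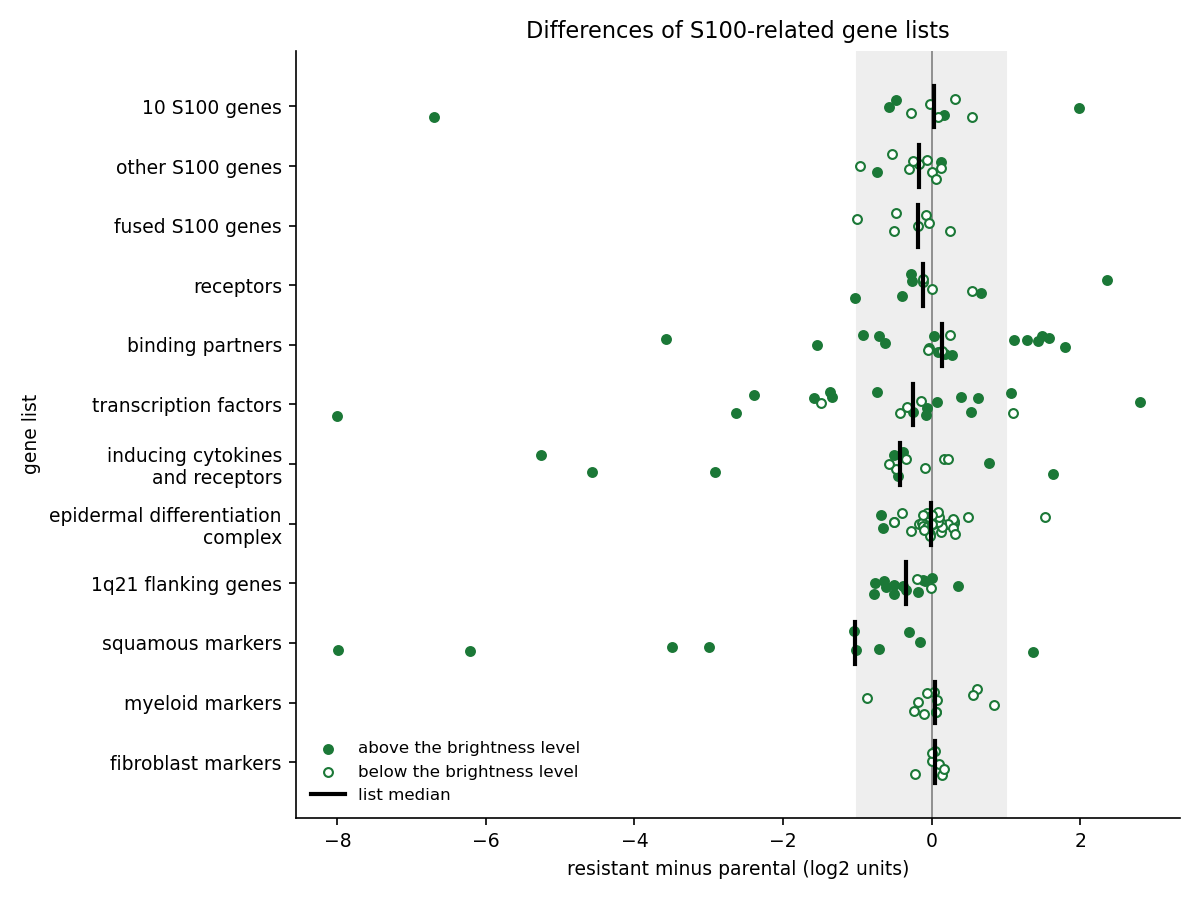
Difference (resistant minus parental, log2 units, horizontal axis) of every measured gene in 12 lists, 1 row per list; filled points lie above the brightness level, open points below it, black bars are list medians and shading marks differences under 2-fold. The squamous markers, all above the brightness level, have the lowest median, -1.03. The medians of the 10 S100 genes (0.03) and of the 11 other S100 genes (-0.17) include many dim genes. Over the genes above the brightness level they are -0.48 (5 of the 10 S100 genes) and -0.30 (2 of the other S100 genes).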

How the data were processed

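Total RNA of each line was labelled with biotin and hybridised to 1 array, per the labels' protocols. The authors deposited log2 expression values of 67528 transcript clusters, the gene-level units of the array, 1 column per array. That scale is read from their range, 1.95 to 19.63 for the resistant and 2.00 to 19.78 for the parental array. Affymetrix Expression Console was used, per the submitters' processing notes; version, summarisation and build were not given in the sources used here. Value by value after sorting, the columns were 0.06 log2 units apart at the median and 0.28 at most, so both distributions nearly coincide and a difference in total RNA per cell cannot be seen.

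Names came from the platform annotation (1 symbol for 23781 clusters, several for 1543, which were not named), updated to GRCh38.p14 RefSeq symbols through the gene identifier for 21497 clusters. A gene with several clusters was represented by the brightest, which left 22465 genes. The annotation's coordinates served for gene order only, and promoter sequences are those of RefSeq. A member was called different at 2-fold among genes above the median brightness. The genes named are the 10 members, the other S100 and S100-fused genes with a cluster, up to 8 genes per further list with the largest absolute difference among those above the brightness level, and chromosomal neighbours. The myeloid genes PTPRC, CSF3R, MPO, ITGAM and TYROBP, as well as LY96, SPRR3, LCE3B, ANXA2, AHNAK, IQGAP1, CEBPB, JUN, FOSL1, KRT16, PERP and POGZ, fall outside this rule and were chosen after their values were seen. The members and lists were chosen with earlier results of these data known. No test was run, since there was 1 array per line, and the number of arrays limits the precision. Scripts used Python 3.11.15, pandas 2.3.3 and statsmodels 0.14.6 and were checked on simulated data. The alternatives were median centring, loess, quantile normalisation, the mean of a gene's clusters, floors at background, and other sizes and brightness levels.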

Additional observations from a re-analysis of the deposited data

How the results depend on the processing

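S100A2 stayed at least 2-fold lower and S100A9 at least 2-fold higher under median centring, loess correction, quantile normalisation, averaging the clusters of each gene, and both floors, with differences between -6.70 and -5.78 log2 units for S100A2 and between 1.98 and 2.08 for S100A9. The other 8 members passed 2-fold under none of these. At a 4-fold size 0 members were higher, since the difference of S100A9 as deposited is just under 4-fold, while S100A2 was still counted lower. The median over the members above the brightness level was -0.48, against 0.03 over all 10. It leaves out the 5 dimmer members, whose differences ran from -0.28 to 0.55. Raising values to the background level brought the differences of S100A4 and S100A8 to -0.05 each. An alternative chosen after seeing the data raised values to 7.10, the higher of the 99th percentiles of olfactory receptor genes, on both arrays. It gave -5.78 for S100A2 and 0 for S100A4, S100A6 and S100P, whose values on both arrays lie under that floor. Centring moved the median of all genes to 0.06. Each member had 1 cluster, so averaging clusters changed none of their differences. No paired analysis was possible because each line had 1 array. Differences of members near background cannot be read as changes at this signal.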

Other observations

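Several genes next to S100P on chromosome 4 were higher in the resistant line, while S100P itself was near background. Of the 10 nearest named genes, 7 were above the brightness level, of which 3 were higher and 0 lower by 2-fold or more, with a median difference of 0.95 log2 units over the 7. PPP2R2C, a regulatory subunit of protein phosphatase 2A, stood at 8.18 on the resistant and 5.63 on the parental array. WFS1, the gene of the endoplasmic reticulum protein wolframin, stood at 7.44 on the resistant and 5.92 on the parental array, and TBC1D14, a regulator of autophagy, at 9.63 (resistant) and 8.37 (parental). The parental values of PPP2R2C and WFS1 lay under the floor of 6.59, so the differences of these genes are imprecise. MRFAP1 and MRFAP1L1, which lie on either side of S100P, were 0.86 and 0.95 log2 units higher. Over all of chromosome 4, 22.4% of 389 counted genes were higher by 2-fold or more and 7.20% lower, with a median difference of 0.35, against 16% and 14.1% over all counted genes. These genes were described after their values were seen, and the cause was not tested.

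Before S100A10 on chromosome 1, POGZ, a zinc finger gene of chromatin regulation, stood at 10.44 on the resistant and 11.99 on the parental array, and it was the 1 counted gene past 2-fold among the 12 genes before the cluster and the 15 genes after it.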
